A study of Bos taurus with 2 samples.

Results

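The long arm of the cattle Y chromosome held 1171 unmethylated CpG runs, which are strings of at least 5 neighbouring CpGs that each had a PacBio methylation score below 20%. The runs were chosen on that score, at CpGs with at least 10 reads, between positions 24000001 and 57500000 of chromosome Y (ARS-UCD2.0) and outside the interval from 26000001 to 27100000. They took in 7117 of the 287563 CpGs of this stretch of 32.4 Mb, which is 2.47% of its CpGs, and the PacBio data of the whole chromosome held 975164 CpGs. Lung DNA of cattle was measured in 1 PacBio library and 1 Oxford Nanopore (ONT) library, and the methods of the study name a fetal F1 cross of Wagyu and Charolais with the Y chromosome of the Wagyu sire. There was no treatment and no second animal, so neither platform had a replicate and no difference between samples could be tested. PacBio depth in the stretch ranged from 16 to 348 reads per CpG with a median of 46, and the depth of the ONT values is unknown.

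In mammals, most cytosines followed by guanine carry a methyl group. The best known exceptions are CpG islands, short and CpG-dense stretches that often lie at gene starts and stay free of methylation. The male-specific part of the Y chromosome does not recombine with the X chromosome, and much of it is ampliconic, made of long sequences that are present in many near-identical copies, some of them in inverted orientation.

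The runs were short and held few CpGs. Of the 1171 runs, 580 had exactly 5 CpGs, 288 had 6, 137 had 7 and 21 had 12 or more, up to 15. A run measured 936 bp from its first to its last CpG in the median (interquartile range 664 to 1287 bp, n = 1171), with extremes of 83 and 4010 bp. Together the runs covered 1242.54 kb, or 3.84% of the stretch. Most CpGs with low scores lay elsewhere, since the runs held 13.5% of the 52878 CpGs below 20%, and the other low CpGs stood in 30841 strings of fewer than 5, of which 20906 were single CpGs.

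The runs were sparse in CpGs, unlike a CpG island. Their density was 0.620 CpGs per 100 bp in the median (interquartile range 0.476 to 0.851), against 1.39 (0.789 to 2.78) in the 57512 consecutive, non-overlapping blocks of 5 CpGs into which the whole stretch was divided. Of the 1171 runs, 808 were sparser than the 25th percentile of the blocks and 1025 had fewer than 1 CpG per 100 bp. Neighbouring CpGs were 152 bp apart in the runs and 58 bp apart in the whole stretch, both as medians. The share of blocks with all 5 CpGs below 20% fell with density, from 3.04% of blocks under 0.5 CpGs per 100 bp to 0.0339% of blocks at 4 or more. The mean PacBio level of the blocks went the other way, from 35.8% in the sparsest class to 72.4% in the densest.

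**Figure D1:**
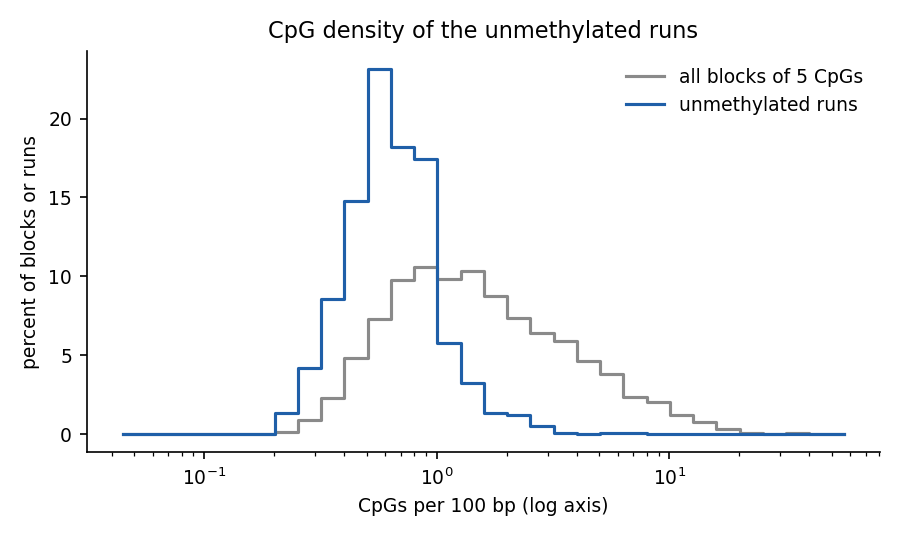
CpG density of the 1171 runs (blue) and of all 57512 blocks of 5 neighbouring CpGs in the stretch (grey), as the percent of runs or blocks in each density bin, on a logarithmic axis of CpGs per 100 bp. The runs lie mostly to the left of the blocks, with medians of 0.620 and 1.39, and only 2 runs lie at 4 or more.

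The runs were spread along the whole stretch. The 31 windows of 1 Mb that lay wholly inside the stretch held 17 to 49 runs each, with a median of 36. The window with the fewest, from 53000001 to 54000000, had a mean PacBio level of 51.6%, and the window with the most, from 24000001 to 25000000, one of 47.6%. The window from 25000001 to 26000000 held 47 runs at 60.6%, the highest mean of the 31 windows. Across the 31 windows of this 1 library the number of runs and the mean PacBio level, from which the runs were chosen, had a Spearman correlation of -0.53 and a Pearson correlation of -0.04. From the end of a run to the start of the next lay 17725 bp in the median (interquartile range 6233 to 35118 bp, n = 1169 gaps). The widest gap, 258372 bp from 25181660 to 25440031, was dense in CpGs, with 3.15 per 100 bp, and its CpGs averaged 72.0% on PacBio and 62.7% on ONT.

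Some runs lay close together. Of the 1169 gaps, 418 were 10 kb or shorter, and with runs joined across such gaps there were 753 clusters, 474 of them a single run and 98 with 3 or more. The 3 largest clusters had 6 runs each. The cluster at 24110718 to 24131771 spanned 21054 bp and its runs had ONT levels of 8.09% to 29.8%. The cluster at 52157996 to 52183026 spanned 25031 bp, with ONT levels of 6.36% to 20.4%. The cluster at 25912793 to 25941791 spanned 28999 bp, with ONT levels of 6.01% to 16.4%, so all 6 of its runs were below 20%.

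The measured levels in the runs were low but not 0. By the rule no CpG of a run reached 20% on PacBio, and the mean level over the 7117 CpGs was 8.85%, against 51.9% at the 280446 CpGs outside the runs. Summed over the CpGs of the runs there were 357246 read counts, of which the authors' tool put an estimated 28000 as modified, which is 7.84%. In this sum a read counts at every CpG that it covers, and deeply covered runs weigh more. No fully unmethylated control was at hand, so these values cannot be told apart from the error of the methylation calls. A typical CpG of a run had 48 reads and 3 modified reads, or 6.25%, with a Wilson 95% interval of 2.15% to 16.8% that covers counting error only, as do all intervals given here.

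ONT, which the rule did not use, also showed low levels in most runs. The mean ONT level, averaged over both strand rows of each CpG, was 14.4% in the runs and 43.7% outside them. Of the 1171 runs, 1059 had an ONT mean below 20%, which is 90.4% (Wilson 95% interval 88.6% to 92.0%). Among all blocks of 5 CpGs 6.59% did so, and among the 12359 blocks whose density lay in the interquartile range of the runs 15.3% did so. The runs thus stood far above both shares.

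Chosen on PacBio, the runs averaged lower on PacBio than on ONT, a sign that the choice itself favours. Over the 1171 runs, the ONT mean per run was 14.3 ± 4.58% (SD over runs) and the PacBio mean 8.92 ± 2.41%, and ONT was the lower of the pair in 96 runs. Outside the runs ONT was instead 8.22 points lower than PacBio on average. An ONT level above 20% at single CpGs was common, since 76.3% of the CpGs in runs were below 20% on ONT and 261 runs had every CpG below it. CpGs with a low PacBio score that belonged to no run had an ONT mean of 13.9%, so the level at the low CpGs was much the same in strings of 5 or more and in shorter ones. Of the 1171 runs, 105 had an ONT mean from 20% to 30% and 7 had a mean of 30% or more.

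The run at 28221527 to 28223112 shows the values CpG by CpG. Its 12 CpGs had PacBio scores of 4.7, 4.3, 3.7, 3.4, 16, 8.9, 16.8, 4.6, 5.2, 8.6, 9.1 and 12.6%, in order along the chromosome, at 49 to 53 reads each. The ONT levels of the same CpGs were 9.59, 8.04, 7.70, 1.25, 12.02, 18.6, 15.5, 5.49, 1.39, 11.5, 7.98 and 20.7%. Only the last CpG passed 20% on ONT, and the CpGs that stood highest on PacBio, the 5th and the 7th, were also above the run's ONT mean of 9.98%.

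The run with the lowest ONT level was that at 50491692 to 50492312, where 5 CpGs averaged 2.20% on ONT and 7.72% on PacBio. The next lowest, at 47549557 to 47550694 and 55963168 to 55964305, both spanned 1138 bp and had ONT means of 4.61% and 4.80%. Among runs of ordinary depth the highest were those at 37240443 to 37241078 with 34.3%, 47086854 to 47088341 with 34.1% and 32203899 to 32204461 with 32.5%.

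**Figure D2:**
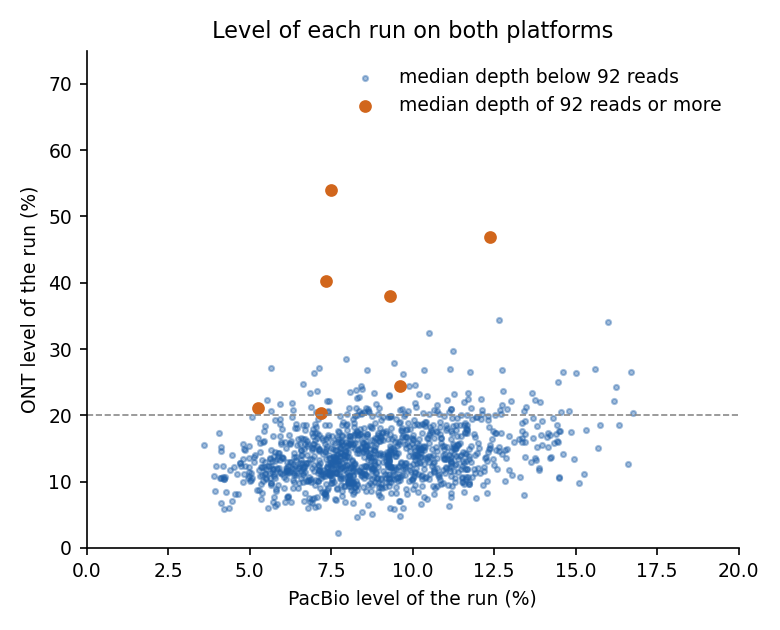
Mean PacBio level (horizontal axis, percent) and mean ONT level (vertical axis, percent) of each of the 1171 runs, with runs whose median PacBio depth was at least 92 reads in orange and the dashed line at 20% on ONT. Of the runs, 1059 lie under the line, and the 7 deep runs lie between 20.4% and 53.9%.

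The longest runs had the same low level as the short ones. Runs of 5 CpGs averaged 14.0 ± 4.61% on ONT (SD, n = 580) and runs of 10 to 11 CpGs 14.8 ± 2.72% (n = 29). Runs of 12 or more CpGs averaged 18.3 ± 11.6% (n = 21), and 14.0 ± 3.58% without the 3 of them at very high depth (n = 18). The longest run in bp, at 29968363 to 29972372, had 13 CpGs over 4010 bp with 6.45% on PacBio and 15.5% on ONT. The run at 24148835 to 24152539 had 11 CpGs over 3705 bp with 7.75% and 13.2%, and its CpG distances were found nowhere else in the stretch. The run at 55367864 to 55370921 had 14 CpGs over 3058 bp with 8.22% and 12.6%.

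Apart from the run of 4010 bp, 5 runs had 13 CpGs. The run at 53884437 to 53887123 averaged 9.77% on PacBio and 16.8% on ONT, and 1 of its CpGs reached 60.2% on ONT. The run at 27318621 to 27321112 had 6.70% and 11.5%. The runs at 44798854 to 44801232 and 45891037 to 45893414 spanned 2379 and 2378 bp, with 14.4% and 10.9% on ONT. The shortest, at 41865303 to 41867444, had 18.1% on ONT, and 43 of its 98 copies were below 20% on that platform. Only the run of 14 CpGs and a pair of 15 CpGs had more, and that pair came from the deeply covered loci described further on.

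Levels stepped up at the edges of the runs. Seen from the edge, the last 3 CpGs inside a run had mean PacBio scores of 8.38% to 9.95%, and the first CpG outside one of 46.2%, a contrast that the rule itself sets. ONT showed the same step, from 14.2% at the last CpG inside to 38.3% at the first CpG outside, which lay 128 bp away in the median. This step is not free of the rule, since CpGs with low PacBio scores outside the runs also averaged 13.9% on ONT. Further out the ONT level stayed near that of the first CpG outside, at 36.5% to 39.1% over the next 9 CpGs. By distance the ONT level was 38.0 ± 12.3% (SD over 1095 runs) within 250 bp of the edge and 42.1 ± 6.09% (n = 1171) at 5 to 10 kb, near the mean outside the runs.

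**Figure D3:**
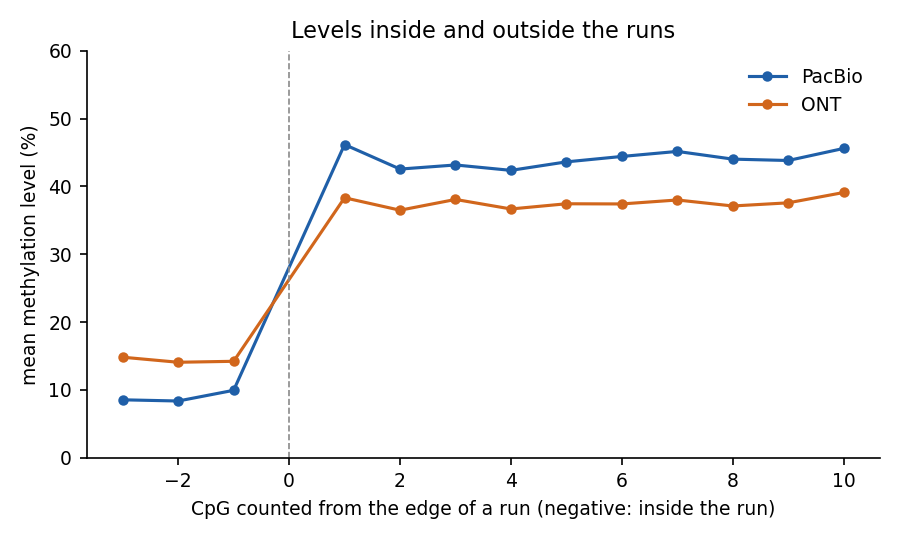
Mean methylation level (percent) on PacBio (blue) and ONT (orange) at CpGs counted from the edge of a run, averaged over both edges of the 1171 runs. Negative numbers are CpGs inside the run and positive numbers are CpGs outside it, and ONT goes from 14.2% to 38.3% across the edge.

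Most runs recurred along the chromosome, at a share near that of blocks of like density. A run was counted as recurring when 4 consecutive distances between its CpGs were found, to the base pair, at another place of the stretch, in the same or the mirrored order. By that measure 968 of the 1171 runs recurred, which is 82.7% (Wilson 95% interval 80.4% to 84.7%), against 88.3% of all blocks of 5 CpGs and 81.2% of blocks with a density like that of the runs. A block has a single set of 4 distances, while the 591 runs with 6 or more CpGs have several, and of the 580 runs with 5 CpGs 455 recurred, which is 78.4% (74.9% to 81.6%). A recurring run had 17 such copies in the median (interquartile range 5 to 43.25) and at most 98, and 50.3% of the copies were mirrored. A copy lay 9.11 Mb away from its run in the median. The 203 runs with no copy had an ONT mean of 13.3 ± 4.24% and the 968 with copies one of 14.5 ± 4.63% (SD over runs), so both kinds were low.

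The copies of the runs were low as well. Over the 968 recurring runs, the mean level of the copies was 14.7 ± 5.97% on PacBio and 15.1 ± 4.999% on ONT (SD over runs). Copies that lay in no other run, which existed for 895 runs, had means of 17.3 ± 5.41% on PacBio and 15.5 ± 5.15% on ONT. Blocks of 5 CpGs with copies had copies at 51.7% and 43.8% on average. Of the 608 runs with at least 10 copies, 534 had most of their copies below 20% on PacBio, against 2.79% of blocks with as many copies, but 44.9% of the copies lay in another run and were low by the rule. Free of that choice, 453 runs had at least 10 copies outside the runs, and in 384 of them, 84.8%, most of those copies were below 20% on ONT. The same held for 3.92% of blocks with at least 10 copies outside the runs. Runs of a family share copies, as 24361 matches over all runs reached 6532 distinct starts, so the 453 runs are not independent.

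Likeness between copies was a property of the whole stretch. Blocks with a mean PacBio level under 20% had copies at 18.9 ± 6.69%, those from 20% to 40% at 33.2 ± 7.77%, those from 40% to 60% at 50.2 ± 7.89%, those from 60% to 80% at 67.1 ± 7.55%, and those above at 82.7 ± 5.93% (SD over blocks). The runs are the low end of that order. Where the copy lay made little difference, since copies under 100 kb from their run averaged 13.2 ± 4.24% on ONT and copies over 10 Mb away 15.3 ± 5.09%. Mirrored copies stood at 15.2 ± 5.11% and copies in the same order at 15.2 ± 5.05%. How far reads of near-identical copies were assigned to the wrong copy was not tested.

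Runs were joined into a family when a copy of one overlapped another, and 932 of the 1171 runs fell into 121 families, 22 of which had 10 or more runs. The bases themselves were not analysed here, so the spacing of the CpGs is what identifies a family. The most shared spacing in the largest family was 152, 836, 267 and 319 bp between 5 successive CpGs, in 41 of its 73 runs. In the second it was 251, 48, 276 and 251 bp (33 of 62 runs), and in the third 31, 69, 117 and 343 bp (10 of 53 runs).

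The largest family had 73 runs among 89 places in all, between 25886808 and 57009923. Its runs had 5 to 11 CpGs, a median length of 2101 bp and ONT means from 8.05% to 19.5%, so none reached 20%. The 16 places of the family that were no run had PacBio means from 9.23% to 23.5% and ONT means from 12.8% to 24.1%. On ONT, 88 of the 89 places were below 20%. The median step from one place to the next was 395 kb, but some places lay close together, such as those starting at 29187089 and 29196615.

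The second family had 62 runs among 106 places between 24680161 and 57356668, with a median length of 828 bp. Its runs had ONT means from 6.89% to 16.8%, and the 44 places that were no run had means from 8.16% to 17.6%, so the groups overlapped and all 106 places were below 20%. On PacBio the 44 other places had means from 10.5% to 25.8%.

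The third family was the least uniform of the 3, with 53 runs among 117 places. Its runs had ONT means from 10.6% to 27.9%, and the 64 places that were no run had means from 13.1% to 31.8%. Below 20% on ONT were 73 of the 117 places, and on PacBio 74. The fourth family, with 49 runs, held 117 places as well, of which 93 were below 20% on ONT. Among the 10 largest families the share of places below 20% on ONT ranged from 57.6% in the eighth to 100% in the second and the tenth.

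**Figure D4:**
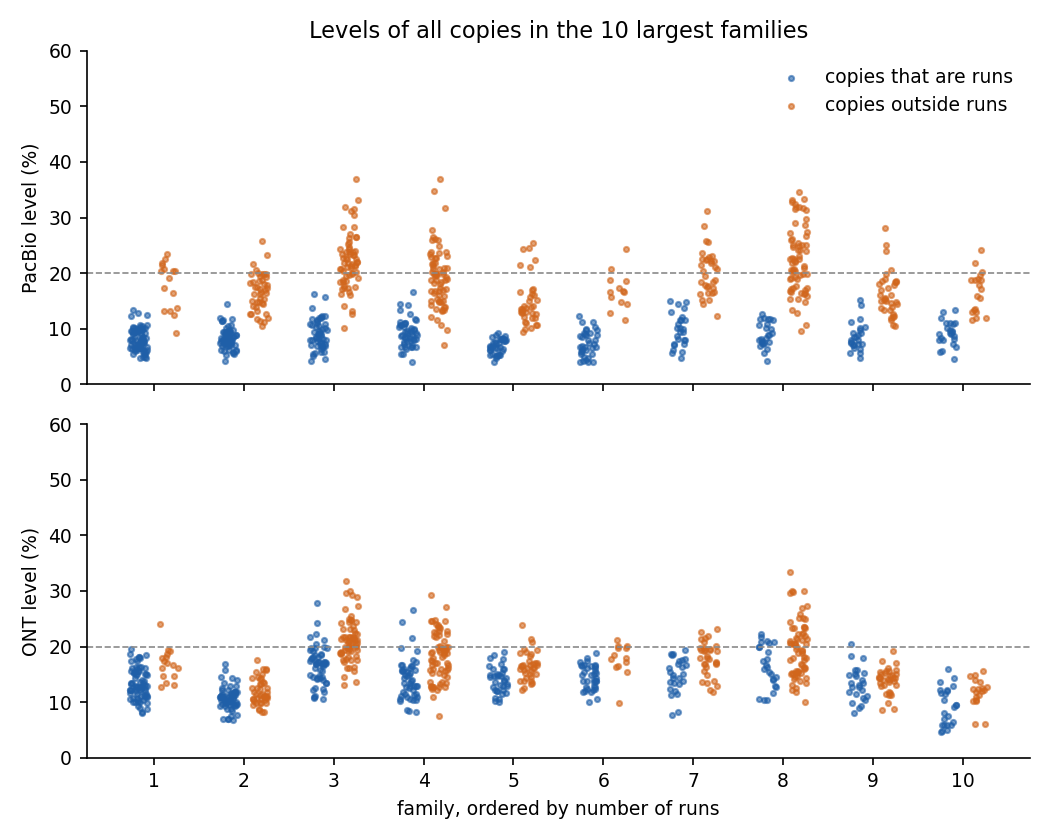
Mean level (percent) on PacBio (upper panel) and ONT (lower panel) of every place of the 10 largest families, with places that are runs in blue and copies outside the runs in orange, and a dashed line at 20%. On PacBio, which the rule used, runs lie mostly lower, and the ranges overlap at least in the largest family. On ONT the ranges of the colours overlap in all 10 families, and the median of the runs is the lower in each.

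Some runs repeated every distance exactly. There were 149 groups of runs with identical distances throughout, in the same or the mirrored order, with 531 runs in all and up to 20 in a group. The group with the most CpGs had 4 runs of 12 CpGs over 1586 bp, all of the second family, with distances of 129, 45, 82, 151, 46, 234, 71, 251, 276, 48 and 251 bp. They began at 28221527, 34912265, 37519385 and 51287022, and the last of them had the distances in the mirrored order. Their PacBio means were 8.16%, 9.23%, 7.93% and 8.95%, and their ONT means 9.98%, 12.3%, 9.27% and 9.79%. The PacBio levels were set by the rule, and on ONT all 4 places were at or below 12.3%.

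The level followed the position in the repeat, CpG by CpG. The 12-CpG run at 28221527 to 28223112 had 84 copies, of which 79 were below 20% on PacBio and all 84 on ONT. Averaged over the copies that held the CpG at the same distance, the CpG 129 bp from the start of the run stood at 8.18 ± 3.24% on ONT (SD, 67 copies) and the CpG at 758 bp at 4.06 ± 1.90% (74 copies). The CpG at 687 bp stood higher, at 22.5 ± 8.93% (75 copies), and it was also the highest of the run on PacBio. The CpG at 1709 bp, the first outside the run, stood at 56.0 ± 9.64% (61 copies). On the other side the CpGs outside the run stood lower, with 44.7 ± 9.33% at -51 bp (63 copies), 26.8 ± 8.58% at -71 bp (66 copies) and 22.1 ± 6.16% at -411 bp (48 copies). The edge CpGs inside the run differed as well, with 11.4 ± 4.56% at the first (58 copies) and 22.7 ± 4.72% at the last (67 copies). Low CpGs stood outside the run too, such as those at 2116, 2463 and 2565 bp with 12.5 ± 4.77%, 14.8 ± 5.21% and 13.6 ± 7.57% (71, 47 and 51 copies).

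In the largest family the same held. The run at 34037319 to 34039593 had 8 CpGs over 2275 bp and 66 copies, of which 65 were below 20% on PacBio and 65 on ONT. The CpG at -409 bp, before the run, stood at 86.0 ± 4.77% on ONT (SD, 41 copies), while the CpG at 772 bp inside it stood at 9.50 ± 4.48% (66 copies). The last CpG of the run, at 2273 bp, had 22.7 ± 6.11% (54 copies), and the CpG at 2443 bp, beyond the run, had 67.4 ± 6.49% (51 copies). The CpGs nearest to the run were less high, with 47.1 ± 7.26% at -234 bp (50 copies) and 33.4 ± 6.76% at 2391 bp (53 copies). Low CpGs outside any run lay before it as well, such as those at -1386 and -1808 bp with 9.10 ± 6.14% and 17.3 ± 9.39% (48 and 33 copies). The low CpGs from 3938 bp on belonged to the next run, and those at 3938 and 4139 bp had 4.47 ± 2.54% (53 copies) and 2.89 ± 1.58% (46 copies). Copies thus shared a pattern of low and high CpGs that went beyond the run.

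**Figure D5:**
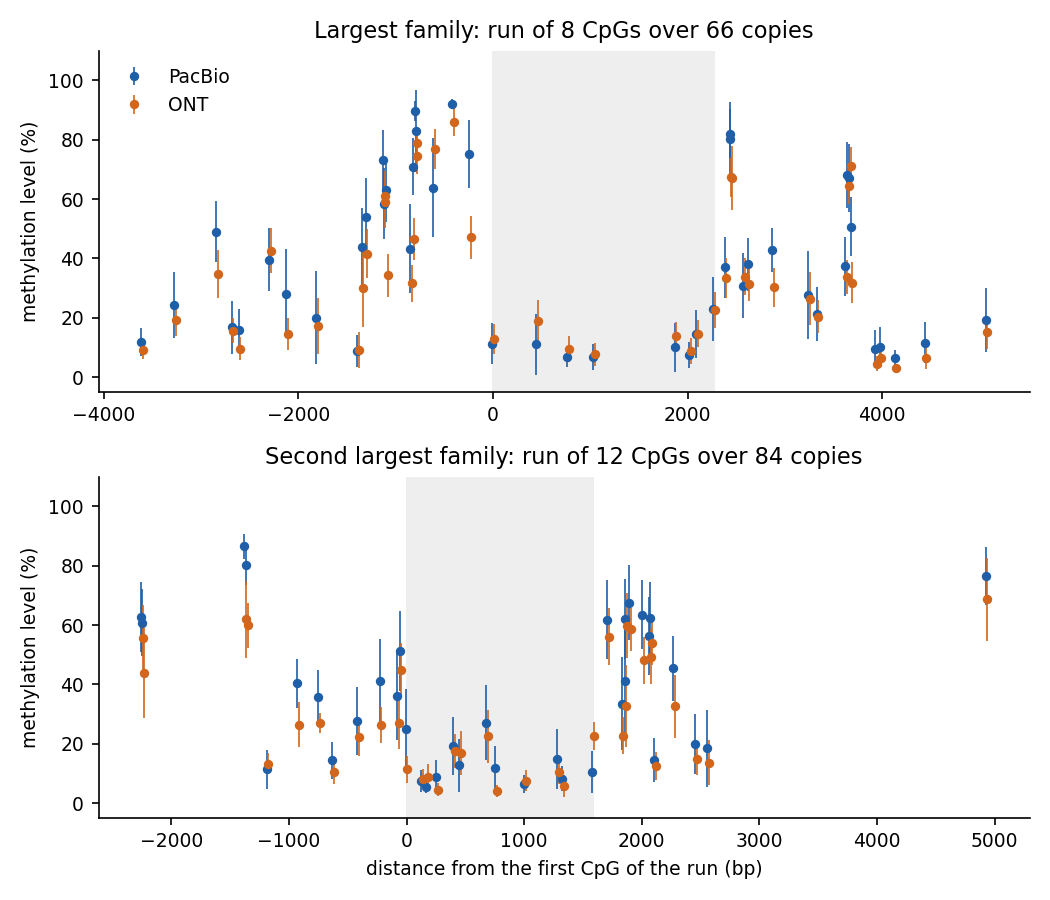
Mean level (percent, error bars are the SD over copies) on PacBio (blue) and ONT (orange) at each CpG found in at least 10 copies, against its distance in bp from the first CpG of a run of the largest family (upper panel, 66 copies) and of the second largest (lower panel, 84 copies). The low CpGs from 3938 bp on in the upper panel belong to the next run. Grey marks the run shown, where ONT means lie between 7.65% and 22.7% above and between 4.06% and 22.7% below.

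A set of 7 runs stood apart by their depth. Their median depth was at least 92 reads, double the median of the stretch, and on ONT all 7 were above 20%. At median depths of 60 to 80 reads, 97.3% of the 73 runs were below 20% on ONT, and at depths under 40 reads 89.0% of 155 runs were. Of the 7, 6 came from a pair of loci of like spacing. One locus, 42508929 to 42514953, had 134 CpGs at a median of 303 reads, and the other, 44028019 to 44034039, had 135 CpGs at 345 reads, and 118 of the 131 sets of 4 consecutive distances in the second were found in the first.

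At these loci the platforms differed. Over the first locus the mean level was 32.2% on PacBio and 53.0% on ONT, and over the second 34.9% and 49.9%. The run at 42509114 to 42509324, with 12 CpGs at 5.69 per 100 bp, had 7.50% on PacBio at 302 reads and 53.9% on ONT, the highest ONT mean of all runs. The run at 44028204 to 44028286 averaged 12.4% on PacBio and 46.9% on ONT. The 2 runs of 15 CpGs, at 42512053 to 42512790 and 44031140 to 44031876, had 7.34% and 9.30% on PacBio against 40.3% and 38.0% on ONT.

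The copies of these runs stood nearer to the ONT than to the PacBio values of the runs. The run at 42509114 to 42509324 had 38 copies that averaged 68.0% on PacBio and 58.2% on ONT, and only 1 of them was below 20% on PacBio. The run at 42512053 to 42512790 had 32 copies, with means of 51.5% and 45.01%, again with 1 below 20%. The third deep run at the first locus, at 42514428 to 42515040, ran past its end and had 20.4% on ONT, and the third at the second locus, at 44033514 to 44033837, had 21.1%. The 7th deep run, at 24075697 to 24077453, had 102 reads, 9.60% on PacBio, 24.4% on ONT and no copy. The part of read placement in these values was not tested, and without the 7 runs the ONT mean per run was 14.2 ± 4.199% (SD, n = 1164), 91.0% of runs were below 20%, and none exceeded 34.3%.

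Few runs lay at genes. The gene table of the assembly lists 99 genes in the stretch, 80 of them protein-coding, 18 pseudogenes and 1 long non-coding RNA, nearly all listed there only under locus symbols. The paper groups annotated Y genes into families such as HSFY, TSPY and ZNF280B, and that grouping was not used here. Only 7 runs, 0.598% (Wilson 95% interval 0.290% to 1.23%), lay within 1 kb of a gene end, against 2.31% of all blocks and 1.02% of blocks with a density like that of the runs. A gene was overlapped by 28 runs, 2.39% of them, against 4.58% of all blocks and 2.51% of blocks of like density. Beside blocks of like density the runs were thus not set apart at genes, and the nearest gene lay 114 kb from a run in the median. Runs inside genes had an ONT mean of 14.2 ± 4.23% (SD, n = 28), much like the others. The ends of the 99 genes themselves were methylated, with a mean of 47.5 ± 11.3% on ONT (SD over genes).

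At the ends of protein-coding genes lay 4 runs, 0.342%, against 1.92% of all blocks, which are denser in CpGs. The share of blocks of like density was not computed for these ends. At LOC104974629 (24524743 to 24558352) a run of 8 CpGs from 24558278 to 24559599 averaged 7.45% on PacBio and 11.4% on ONT, and its single copy was below 20% on both. At LOC132344674 (28450254 to 28451721) a run of 5 CpGs from 28450574 to 28450873 had 9.44% and 16.7%, and of its 13 copies 3 were below 20% on PacBio and 4 on ONT. At LOC132344679 (30535268 to 30537061) a run of 5 CpGs from 30536481 to 30537356 had 5.84% and 13.4%, and all 20 of its copies were below 20% on both platforms. At LOC132344526 (55839089 to 55850164) a run of 7 CpGs from 55848070 to 55849284 had 10.5% and 20.2%, and of its 48 copies 44 were below 20% on PacBio and 38 on ONT. The table gives no strand, so whether a run lay at the start or the end of transcription was not determined here. The gene with the most runs, LOC132344552 (54060688 to 54247045), held 6 in its 186358 bp. Genes with a run numbered 16, of which 10 were protein-coding.

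The rule cut through a gradual distribution. The 3 runs with the highest mean scores were those at 52182224 to 52183026 with 16.8%, 52347593 to 52347964 with 16.7% and 42744259 to 42745065 with 16.6% on PacBio, and they had 20.4%, 26.5% and 12.6% on ONT. Another 493 stretches failed only because 1 CpG had a score of 20% to 25%, and their ONT mean of 15.5 ± 4.64% (SD over stretches) was close to that of the runs. The longest of them, at 24875138 to 24877061, 47333374 to 47335297 and 39826378 to 39828225, had 9 CpGs each with ONT means of 13.8%, 19.04% and 15.9%. When the same rule was applied to ONT in place of PacBio it found 945 runs, and 451 of the PacBio runs (38.5%) overlapped 450 of them (47.6%).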

How the data were processed

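One PacBio and 1 ONT library of cattle lung DNA were used. For PacBio, the authors scored reads with Primrose, aligned them with pbmm2 and summarised them per CpG with pb-CpG-tools. The deposited PacBio file gives a score in percent, the read count, and, as estimated counts, how many of those reads were modified or not. For ONT, the authors called bases with Dorado, aligned with Winnowmap and summarised calls with modbam2bed, and the deposited values are a percent per strand without depth. A zero among them may be a measurement or a missing call.

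The files run in opposite directions and were placed in the direction of the assembly by the constants of the rule, so absolute positions rest on that placement. All 287563 CpGs of the stretch had both ONT rows, whose mean is the ONT level. The median depth was 46 PacBio reads. Runs, blocks and copies were computed with pandas 2.3.3, numpy 2.4.6 and scipy 1.17.1 under Python 3.11.15, and plotted with matplotlib 3.10.9, and the run finding and copy search were tested on simulated data. A copy's level is the mean over its matched CpGs. Runs and copies of a family were linked by shared CpG spacing or by overlap and came from 1 library, so they are not independent. With 1 library per platform no test was run, and SDs describe runs, copies or genes. The members, the lists and the rule for naming runs (most CpGs, longest, lowest and highest ONT, largest families and clusters, protein-coding gene ends, nearest to the threshold) were chosen with earlier results of these data known. The deep runs, the ordinary runs with the highest ONT levels, the identical 12-CpG runs and the run shown CpG by CpG were added after their values were seen, as was the run of 41865303 to 41867444, which ties with the 8 runs of most CpGs and is shorter. The shares of copies outside the runs and of 5-CpG runs that recur, and the gene shares of blocks of like density, were also added later. Alternatives were other score limits, run sizes, read minimums, depth ranges, ONT rows, distance rules and gene windows. No genome sequence was used here, so no bases are shown.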

Additional observations from a re-analysis of the deposited data

How the results depend on the processing

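A read minimum of 4 and skipping of shallow CpGs could change nothing, since no CpG of the stretch had fewer than 16 reads, and a minimum of 20 left 1171 runs. Of the 81 values under the remaining settings, 57 stayed within the limits set for them (1.5 times for a count, the Wilson interval for a share, 1 SD over runs or gaps for a mean or median). The 81 include those of the minimum of 20, which changed nothing. The SD limits were wide, at 30309 bp for spacing, 0.441 CpGs per 100 bp for density and 4.58 points for ONT, and are thus weak checks. A score limit of 10% gave 305 runs with a median spacing of 67396 bp, 94.8% below 20% on ONT and 80% recurring. A limit of 30% gave 2557 runs with a median spacing of 6990 bp, 79.4% below 20% on ONT and 85.5% recurring. At least 8 CpGs gave 166 runs with a median length of 1606 bp, a median spacing of 130639 bp, 92.8% below 20% on ONT and 94.0% recurring, the last among runs with more distances to match. With 1 CpG at or above the limit tolerated there were 2611 runs with a median spacing of 7666 bp, 79.3% of them below 20% on ONT. Leaving out CpGs with an ONT row at 0 lowered that share to 86.0%. Recurrence was 76.9% with 6 consecutive distances (runs of 7 or more CpGs), 86.6% with distances that may differ by 1 bp (91.2% of all blocks) and 77.0% in the same orientation (83.0% of all blocks). Blocks of 5 CpGs have only 4 distances, so they give no share for 6. Shares of blocks of like density were not computed for these settings. A gene window of 5 kb held 4.18% of runs and 6.78% of all blocks, which are denser in CpGs. The same rule on ONT levels, chosen after seeing the data, gave 945 runs, 84.9% of them recurring. Causes were not tested.

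The ONT mean of the CpGs in runs stayed between 13.0% and 16.4% and the median density between 0.556 and 0.646 CpGs per 100 bp in all alternatives run. The number of runs moved with the score limit, and the median depth of 46 reads limits the precision at a single CpG. No paired analysis was possible because each platform has 1 library.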
